A study of Mus musculus with 10 samples.

Results

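Of 94823 chromatin regions measured in thymic invariant natural killer T (iNKT) cells, 2658 (2.80%) were open in iNKT2 cells of BALB/c mice, far less open in iNKT1 cells of the same strain, and lost most of their signal in iNKT2 cells of SKG mice. They were chosen by 3 limits on group means of CPM (counts of insertions per 1000000 in the library), each with 0.5 CPM added before a ratio was taken. The BALB/c iNKT2 mean had to be at least 2 CPM, the ratio of BALB/c iNKT2 to BALB/c iNKT1 at least 3, and the ratio of SKG iNKT2 to BALB/c iNKT2 at most 0.4. The 2658 regions were 29.7% of the 8962 regions that met the first pair of limits, which are called iNKT2-high here.

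The assay was ATAC-seq on cells sorted from the thymus, where Tn5 cuts open DNA and leaves adapters at its cuts. SKG mice are on the BALB/c background and carry a hypomorphic mutation of Zap70, the kinase that relays the signal of the T cell receptor (TCR), in every cell. The 4 groups, each named by strain and subset, were BALB/c and SKG iNKT1 with 2 libraries each and BALB/c and SKG iNKT2 with 3 libraries each, with no treatment, from age-matched mice. By the study's methods iNKT1 cells were gated as CD27+ CD122+ and iNKT2 cells as CD27+ CD122-, and the BALB/c mice were purchased, so the Zap70 mutation and other differences between the colonies cannot be told apart. The libraries held 14988590 to 36342635 insertions inside the regions, and the labels do not say whether replicates came from separate animals, so p-values measure the spread between these libraries only.

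iNKT cells carry a semi-invariant TCR that sees lipid antigens presented by CD1d, and they split in the thymus into subsets with the cytokine profiles of helper T cells. iNKT1 cells depend on T-bet and make interferon gamma, whereas iNKT2 cells have high PLZF and make IL-4. TCR stimulation raises calcium, which activates NFAT factors through calcineurin, and induces the zinc finger factors Egr1 and Egr2 through the Ras and Erk kinases. NFAT binds DNA with the core TGGAAA, and Egr factors bind GC-rich sites such as GTGGGCG.

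The sequences of 10 of the regions are shown first, because the letters TGGAAA set these regions apart in frequency from the other regions, as described further on. Each line gives the central 300 bases on the plus strand of GRCm38 (mm10), read from the C57BL/6J reference and not from BALB/c DNA. Capitals mark TGGAAA, the Egr strings GTGGGCG and GTGGGTG and the AP-1 string TGANTCA, on either strand. The first line, from a member with one of the highest levels, holds none of these strings and is shown for contrast. All the other lines hold TGGAAA, so the lines do not show how common it was. Over the whole set they come from, 42.9% of regions held it in their central 300 bases. Regions named below but not printed, in Mapk10, Cd200, Bach2 and Il1r1 and by Cpeb2, Jag1, Egr2 and Il10, held no copy there. Those by Dusp4 and Il21 and in Ikzf2, also not printed, held 1 each.
Mef2c intron, chr13:83609029-83609328: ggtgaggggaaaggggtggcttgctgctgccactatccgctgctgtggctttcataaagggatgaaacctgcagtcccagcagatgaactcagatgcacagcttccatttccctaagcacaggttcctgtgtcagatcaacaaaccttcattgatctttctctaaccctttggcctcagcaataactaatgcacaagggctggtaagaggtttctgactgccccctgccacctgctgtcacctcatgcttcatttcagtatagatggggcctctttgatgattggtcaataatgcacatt
Rbm47 intron, chr5:66165918-66166217: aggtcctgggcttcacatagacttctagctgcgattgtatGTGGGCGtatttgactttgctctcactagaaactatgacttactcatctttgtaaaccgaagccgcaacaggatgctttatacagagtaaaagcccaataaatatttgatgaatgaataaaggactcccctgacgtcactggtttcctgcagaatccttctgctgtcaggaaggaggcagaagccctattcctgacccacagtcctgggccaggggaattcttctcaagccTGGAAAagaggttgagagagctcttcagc
Slc24a3 intron, chr2:145233850-145234149: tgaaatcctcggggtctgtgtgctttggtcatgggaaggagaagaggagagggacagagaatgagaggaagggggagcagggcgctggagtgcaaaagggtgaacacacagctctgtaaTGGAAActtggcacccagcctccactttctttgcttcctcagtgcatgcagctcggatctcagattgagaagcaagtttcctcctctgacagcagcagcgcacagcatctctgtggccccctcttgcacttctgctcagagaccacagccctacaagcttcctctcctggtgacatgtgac
Ano6 intron, chr15:95826497-95826796: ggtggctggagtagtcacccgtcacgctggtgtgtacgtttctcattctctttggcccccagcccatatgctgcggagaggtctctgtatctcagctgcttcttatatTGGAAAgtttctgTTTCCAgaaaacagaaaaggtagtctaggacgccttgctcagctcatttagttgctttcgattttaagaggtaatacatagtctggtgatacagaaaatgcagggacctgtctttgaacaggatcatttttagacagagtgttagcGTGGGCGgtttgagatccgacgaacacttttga
Nearest to Gm10800, chr2:99472958-99473257: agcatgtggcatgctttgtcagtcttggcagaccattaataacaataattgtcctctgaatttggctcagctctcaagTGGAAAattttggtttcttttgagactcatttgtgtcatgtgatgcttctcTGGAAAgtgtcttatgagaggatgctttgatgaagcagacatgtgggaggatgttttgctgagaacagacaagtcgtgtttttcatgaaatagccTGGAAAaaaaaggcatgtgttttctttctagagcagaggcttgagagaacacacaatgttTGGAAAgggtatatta
Upstream of Htr2a, chr14:74634192-74634491: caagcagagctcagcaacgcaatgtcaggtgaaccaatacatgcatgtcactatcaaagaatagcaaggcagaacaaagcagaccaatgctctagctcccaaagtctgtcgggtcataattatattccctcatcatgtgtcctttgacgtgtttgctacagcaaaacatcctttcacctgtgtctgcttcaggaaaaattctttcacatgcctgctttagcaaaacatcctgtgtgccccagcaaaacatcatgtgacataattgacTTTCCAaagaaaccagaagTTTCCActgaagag
Fhit intron, chr14:10918186-10918485: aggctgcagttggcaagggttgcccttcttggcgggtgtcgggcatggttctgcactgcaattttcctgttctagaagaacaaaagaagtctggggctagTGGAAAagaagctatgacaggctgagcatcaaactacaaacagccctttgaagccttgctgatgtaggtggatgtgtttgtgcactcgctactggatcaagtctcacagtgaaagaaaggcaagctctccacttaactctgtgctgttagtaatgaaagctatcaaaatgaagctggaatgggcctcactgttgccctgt
Nfkbiz, intergenic, chr16:55770312-55770611: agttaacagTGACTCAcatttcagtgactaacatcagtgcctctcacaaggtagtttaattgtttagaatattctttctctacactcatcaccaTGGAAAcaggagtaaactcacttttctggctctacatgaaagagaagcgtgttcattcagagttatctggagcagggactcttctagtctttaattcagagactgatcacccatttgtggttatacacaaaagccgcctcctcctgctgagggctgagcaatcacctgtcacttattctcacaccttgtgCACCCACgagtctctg
Il6ra intron, chr3:89892457-89892756: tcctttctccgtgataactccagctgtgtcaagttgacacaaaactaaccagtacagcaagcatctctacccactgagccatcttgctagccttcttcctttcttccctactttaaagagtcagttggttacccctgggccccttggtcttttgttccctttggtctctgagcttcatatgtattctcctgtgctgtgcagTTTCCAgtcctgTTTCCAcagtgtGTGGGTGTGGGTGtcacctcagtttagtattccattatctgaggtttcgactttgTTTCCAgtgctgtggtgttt
Prkcq, intergenic, chr2:11142980-11143279: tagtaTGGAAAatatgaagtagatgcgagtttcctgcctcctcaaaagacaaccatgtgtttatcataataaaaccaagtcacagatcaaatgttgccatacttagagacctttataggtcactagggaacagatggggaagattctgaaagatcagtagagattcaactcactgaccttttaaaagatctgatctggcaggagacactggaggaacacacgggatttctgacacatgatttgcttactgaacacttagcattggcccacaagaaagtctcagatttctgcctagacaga
The Gm10800 line holds 4 copies of TGGAAA, the Il6ra line 3 copies beside a pair of overlapping GTGGGTG strings, and the Ano6 line 2 copies that face each other 7 bases apart. Repeat masking covered 161 of the 300 bases by Gm10800, 159 by Htr2a and 143 in Il6ra.

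As a group the 2658 regions had a median of 4.26 CPM in BALB/c iNKT2, 0.693 in SKG iNKT2, 0.237 in BALB/c iNKT1 and 0.160 in SKG iNKT1. By library the medians were 4.27, 4.29 and 4.31 CPM in BALB/c iNKT2, 0.802, 0.551 and 0.674 in SKG iNKT2, 0.239 and 0.220 in BALB/c iNKT1, and 0.128 in each SKG iNKT1 library. The first 3 of these groups chose the regions, so their separation is a description with no test. In 2654 regions every BALB/c iNKT2 library lay above every SKG iNKT2 library, which the loss limit on the same libraries favoured. Nothing is read from that count. The 2658 regions took 1.75% to 1.87% of all insertions in the BALB/c iNKT2 libraries, 0.267% to 0.375% in SKG iNKT2, 0.126% to 0.140% in BALB/c iNKT1 and 0.0688% to 0.0780% in SKG iNKT1. As a sum, genes marking iNKT1 cells (Tbx21, Ifng, Il2rb, Cxcr3 and Fasl) moved the other way in iNKT2. Their regions, none of them a member, summed to 731 to 801 CPM in BALB/c iNKT2 and 835 to 948 in SKG iNKT2, with no overlap, and to 1973 to 1998 in BALB/c and 1885 to 1947 in SKG iNKT1. The largest rise in iNKT2 was at Fasl, from a mean of 385 CPM in BALB/c to 496 in SKG. At Cxcr3 the mean fell from 18.6 to 17.2 CPM. Library ranges of the iNKT2 groups overlapped at Tbx21, Ifng, Il2rb and Cxcr3. The part of these marker genes in the results was not tested. These are bulk cells, in which fewer cells with an open region and less opening per cell cannot be told apart.

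**Figure D1:**
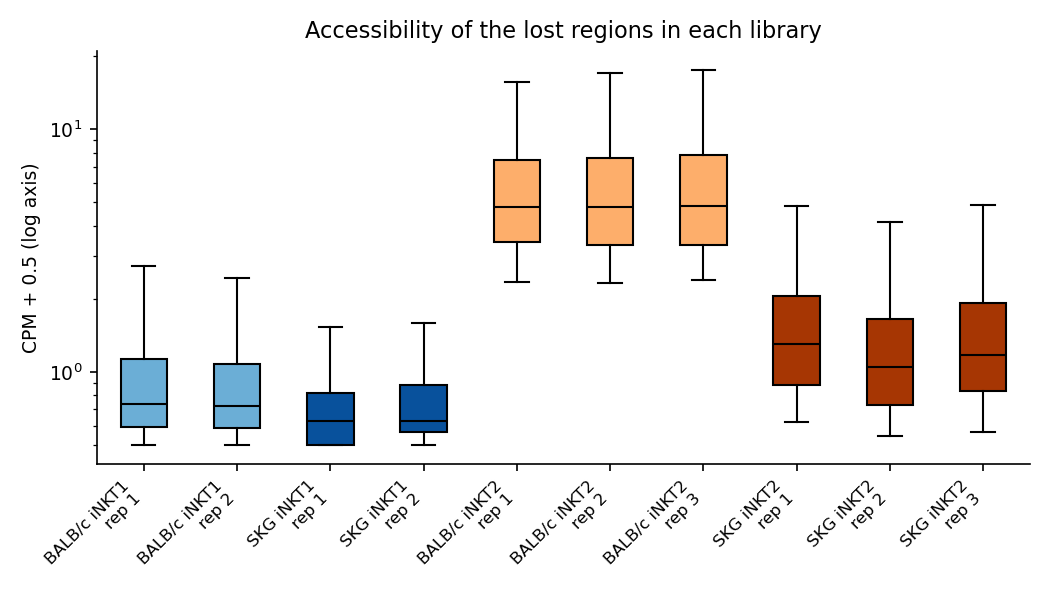
CPM plus 0.5 (log axis) of the 2658 regions in each of the 10 libraries. Boxes give the quartiles and median and whiskers the 5th and 95th percentiles over regions, not replicate error. The SKG iNKT2 boxes, with medians of 0.551 to 0.802 CPM before the 0.5 is added, sit between those of BALB/c iNKT2 and of iNKT1.

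The loss was graded rather than all or none. The median ratio of SKG to BALB/c iNKT2 was 0.273, with 624 regions at 0.2 or less, 997 above 0.2 and up to 0.3, and 1037 above 0.3. Of the other iNKT2-high regions, 1025 lay above 0.4 and up to 0.5, so the limit cuts a continuous spread. Only 5 of the 2658 regions, by Olfr389, Tent4a, Mylk, Cxcl1 and Tead1, had no insertion in any SKG iNKT2 library, and 953 had a mean under 0.5 CPM there. The SKG iNKT2 mean was still above that of SKG iNKT1, a group that took no part in the choice, in 2481 regions (93.3%), against 99.4% of intermediate and 99.6% of kept iNKT2-high regions (ratios between 0.4 and 0.8 and of 0.8 or more) and 55.3% of all regions. The choice used the SKG iNKT2 side and favoured regions low in BALB/c iNKT1, so these shares are a description.

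Regions next to the limits differed little across them. At the iNKT2 to iNKT1 limit, members by Lrrc10b and Cped1 had ratios of 3.003 and 3.007, and regions by Rgs8 and Armc2 just missed it at 2.996 and 2.995. At the loss limit, the members by Smpd3 and Wdr91 had ratios of 0.3999 and 0.3997, against 0.4001 by Smim15 and 0.4002 by Cox7c outside it. At the level limit, the members by 4930524J08Rik and Cdyl had 2.001 and 2.005 CPM, against 1.998 by Dab2 and 1.994 by Otud4. The choice was also repeated without each of the 8 libraries it used, and the library left out was then read in the regions chosen. The left-out SKG iNKT2 libraries had medians of 0.891, 0.551 and 0.742 CPM there, and by itself each met the loss limit in 75.5%, 91.1% and 83.2% of the regions. The left-out BALB/c iNKT2 libraries had medians of 4.08, 4.02 and 3.999 CPM.

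The contrasts that chose the regions are given as counts only. By edgeR (quasi-likelihood test, adjusted p under 0.01 over all regions and at least 4-fold), 2589 of the 2658 were higher in the iNKT2 than in the iNKT1 cells of BALB/c mice, against 15.5% of all regions, and 1960 were lower in SKG than in BALB/c iNKT2, against 4.73%. Nothing is read from these counts.

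The members with the highest BALB/c iNKT2 levels kept a clear remainder in SKG iNKT2. An intron of Mef2c, a MADS-box transcription factor, held one of them (chr13:83608869-83609488). Its levels were 41.4, 53.2 and 65.3 CPM in BALB/c iNKT2, 13.9, 15.7 and 19.6 in SKG iNKT2, 5.50 and 5.82 in BALB/c iNKT1 and 2.38 and 2.18 in SKG iNKT1. All 4 groups stood apart from each other.
In an intron of Rbm47, an RNA-binding protein (chr5:66165718-66166416), the BALB/c iNKT2 libraries held 42.00, 47.6 and 53.9 CPM and the SKG iNKT2 libraries 15.5, 13.96 and 18.7. The iNKT1 libraries held 7.68 and 6.96 CPM in BALB/c and 1.22 and 2.44 in SKG. A region in an intron of the kinase gene Mapk10, whose nearest start is that of Arhgap24 (chr5:102929974-102930921), was nearly closed in iNKT1, at 1.08 and 1.76 CPM in BALB/c and 0.128 and 0.385 in SKG.
Its iNKT2 levels were 46.9, 46.6 and 45.4 CPM in BALB/c and 10.4, 13.1 and 20.4 in SKG. The promoter region of Zc2hc1a (chr3:7503256-7503883) had 41.2 ± 10.8 CPM (SD, n = 3) in BALB/c iNKT2 and 12.2 ± 4.52 CPM (SD, n = 3) in SKG iNKT2. In an intron of Slc24a3, a potassium-dependent sodium/calcium exchanger (chr2:145233578-145234420), BALB/c iNKT2 had 48.9, 31.8 and 39.3 CPM against 6.63, 7.81 and 6.68 in SKG iNKT2. The SKG iNKT2 level in Slc24a3 thus fell below the BALB/c iNKT1 level of 12.8 and 10.4 CPM, which was not so for the other members of this group.

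The members with the lowest ratios fell to below 1 CPM in SKG iNKT2. In an intron of Ano6, which encodes a calcium-activated phospholipid scramblase (chr15:95826427-95826865), BALB/c iNKT2 had 26.8, 22.5 and 23.95 CPM and SKG iNKT2 0.386, 0.230 and 0.337. The same region had 4.42 and 4.41 CPM in BALB/c iNKT1 and 0.193 and 0.321 in SKG iNKT1, so the SKG libraries of both subsets lay far below those of BALB/c. Upstream of Cpeb2, which encodes a regulator of translation (chr5:43113467-43113808), the picture was the same, with 15.2, 16.4 and 17.2 CPM in BALB/c iNKT2, 0.238, 0.230 and 0.135 in SKG iNKT2, 3.67 and 3.57 in BALB/c iNKT1 and 0.578 and 0 in SKG iNKT1. The other 4 were open in BALB/c iNKT2 alone. An intergenic region 805656 bp from Gm10800 (chr2:99472957-99473258) had 17.3, 18.97 and 18.9 CPM in BALB/c iNKT2, against 0.149 to 0.385 in the other 7 libraries. One 6293 bp upstream of Htr2a, a serotonin receptor gene (chr14:74634136-74634547), had 16.7, 18.9 and 17.7 CPM there and 0.357, 0.0459 and 0.202 in SKG iNKT2. Fhit, which encodes a diadenosine triphosphate hydrolase, held a pair of them in its introns. At chr14:11036233-11036608 BALB/c iNKT2 had 11.8, 19.3 and 21.1 CPM and SKG iNKT2 0.386, 0.0459 and 0.539, and at chr14:10918175-10918496 the values were 19.9, 14.7 and 17.3 and 0.683, 0.230 and 0.135. The iNKT1 libraries of either genotype had at most 0.257 CPM at both Fhit regions.

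**Figure D2:**
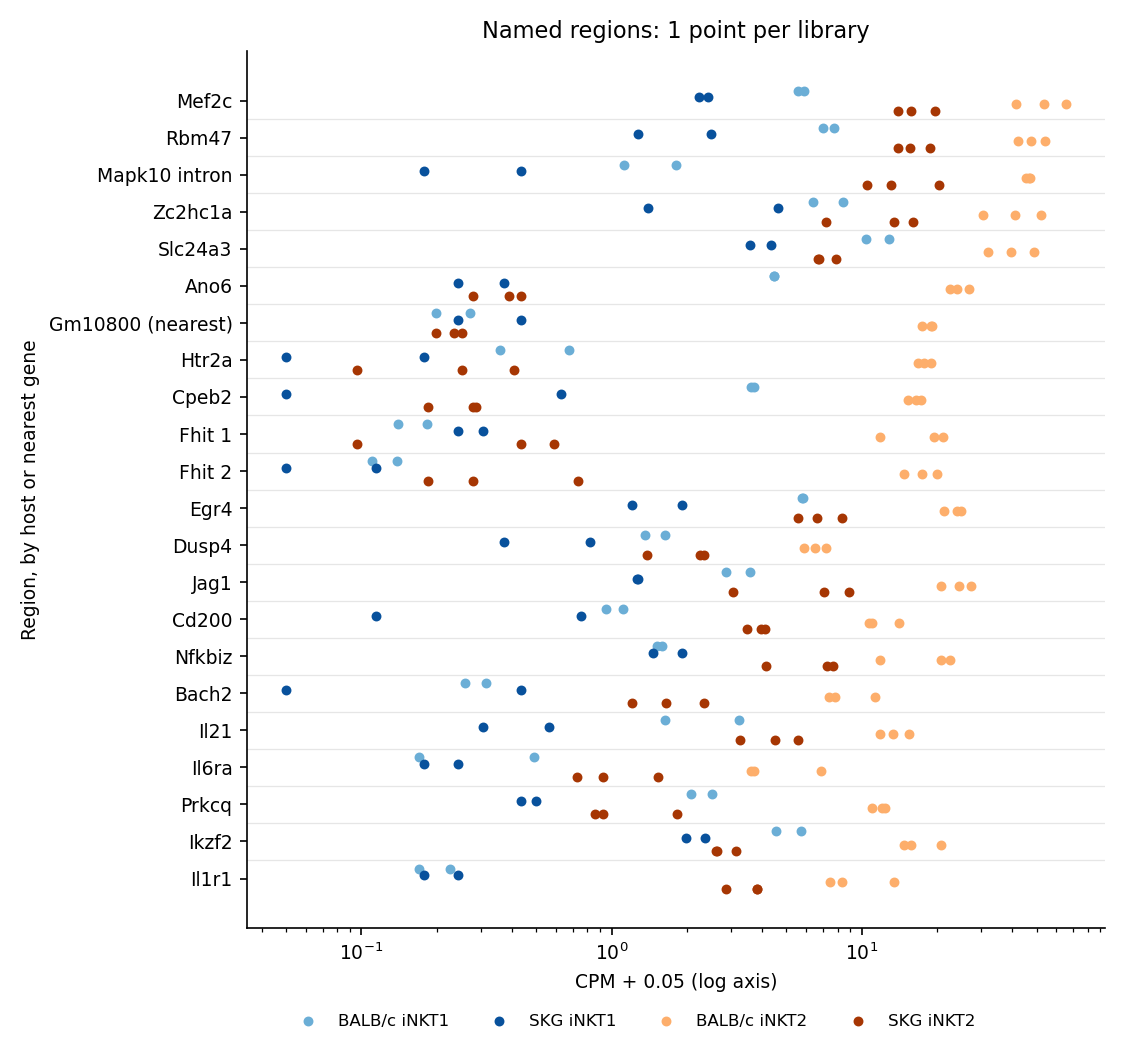
CPM plus 0.05 (log axis) in each library at 5 regions of highest BALB/c iNKT2 level, the 6 of lowest ratio and the highest region of each gene list, labelled by host or nearest gene. Each point is 1 library, coloured by group. Points of BALB/c iNKT2 lie farthest right in every row, and those of SKG iNKT2 range from 13.9 to 19.6 CPM in Mef2c to under 1 CPM in Ano6.

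In iNKT1, where the genotype change did not choose the regions, those that were open at all tended to be lower in SKG. By edgeR (quasi-likelihood test, adjusted p under 0.01 over all regions, at least 4-fold), 91 of the 2658 regions (3.42%) were lower in SKG than in BALB/c iNKT1, against 0.732% of all regions, and 1 was higher, against 0.281%. The median fitted log2 change of the 2658 was -0.69, and that of all regions -0.03. Means were lower in SKG in 1827 regions (68.7%), against 52.7% of all regions. The limit on the BALB/c iNKT1 level favours regions that happened to read low there, which works against calls of a loss and towards calls of a gain. The call rests on few libraries: it fell to 4 regions with voom and quantile normalization, all of them among the 91 (among them regions in Ano6 and Rin2 and by Grxcr1), and to 16 or 34 when replicate 1 or 2 of SKG iNKT1 was left out and 22 or 57 when replicate 1 or 2 of BALB/c iNKT1 was. Markers of CD4 CD8 double-positive thymocytes also moved with genotype in iNKT1. The region at Cd8b1 had 0.478 and 1.68 CPM in BALB/c and 4.30 and 15.4 in SKG iNKT1, and with Dntt it summed to 26.1 to 29.2 and 37.1 to 46.4 CPM, while Rag1 and Rag2 had no region. In iNKT2 the list summed to 35.9 to 37.9 CPM in BALB/c and 51.7 to 56.7 in SKG. Nearly all of this was Dntt, at means of 36.9 and 54.3 CPM, while Cd8b1 had at most 0.847 CPM in BALB/c and 1.52 in SKG iNKT2. The list held no member, and its part in the results was not tested. Regions at Pax5, a B cell factor gene, read lower in the SKG libraries of both subsets, at 13.9 and 16.2 against 8.35 and 9.69 CPM in iNKT1 and 22.3 to 26.9 against 16.7 to 18.4 in iNKT2. Those at Cd79a, a B cell receptor gene, had 1.73 and 1.499 against 0.964 and 1.15 CPM in iNKT1 but 1.47 to 1.64 against 1.69 to 2.35 in iNKT2, and Ms4a1 had no region. Neither gene held a member, and their part was not tested.

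Most of the 2658 had too little signal in iNKT1 for such a call. Their median was 8 and 5 insertions in the BALB/c and 2 in each SKG iNKT1 library, and 287 had none in either SKG iNKT1 library. Of the 249 with a mean of at least 1 CPM over the iNKT1 groups, 54 (21.7%) were lower in SKG and 1 higher, with a median log2 change of -1.05. Among all 70125 regions with that level, 0.816% were lower and the median change was -0.01. Of the 948 such iNKT2-high regions that SKG iNKT2 kept, defined as a ratio of 0.8 or more, 3 were lower and 51 higher in SKG iNKT1. Without the limit of 1 CPM, 7 of the 2600 kept regions were lower and 65 higher. The 3704 iNKT2-high regions with a ratio between 0.4 and 0.8, called intermediate, had 26 lower and 16 higher, also without that limit.

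**Figure D3:**
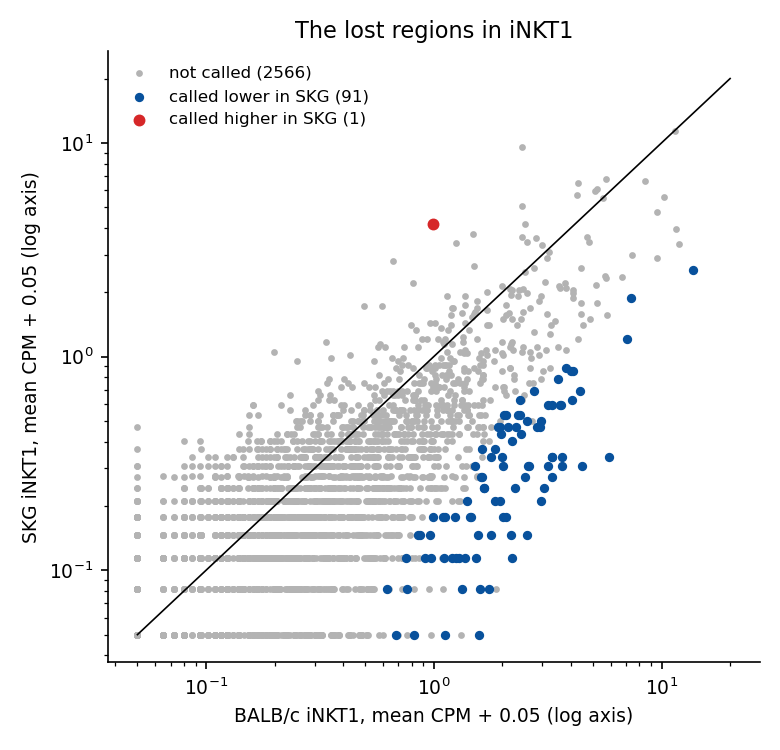
Mean CPM plus 0.05 (log axes) of each of the 2658 regions in BALB/c iNKT1 (horizontal) and SKG iNKT1 (vertical), n = 2 libraries each, with the line of equal levels. The 91 regions called lower in SKG lie below the line, the 1 called higher above it, and the others crowd at low levels.

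The regions lower in SKG iNKT1 included several of those already shown. Ano6 fell by 4.08 (SE 0.34, edgeR adjusted p = 8.5e-06) and held its call in all 15 alternative fits, whereas Rbm47, with a change of -2.0003 (SE 0.27, edgeR adjusted p = 0.00045), lost its call in 9 of 15. Cpeb2 fell by 3.63 (SE 0.51, edgeR adjusted p = 0.00062), a call lost with voom and without BALB/c iNKT1 replicate 1. Mef2c, at -1.31 (SE 0.27), and Slc24a3, at -1.56 (SE 0.23), had changes smaller than 4-fold. The largest fitted falls were at regions where both SKG iNKT1 libraries held no insertion, and these are given as bounds, with 3 insertions in the 2 libraries together as the floor. An intron of Gm1043 (chr5:37164955-37165290) had 1.88 and 1.19 CPM in BALB/c iNKT1 and was at least 15.9-fold lower in SKG. One of Zfp536 (chr7:37685213-37685533) had 1.16 and 0.970 CPM and was at least 11.1-fold lower. Upstream of the chemokine gene Cxcl5 (chr5:90737322-90737644) the BALB/c values were 0.836 and 0.705 CPM and the level was at least 8.004-fold lower. These 3 lost their calls with voom and without at least 3 of the 4 iNKT1 libraries.

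Among the regions that read higher in SKG than in BALB/c iNKT1, a single one passed the limits of a call. In an intron of Ptprb, a receptor tyrosine phosphatase (chr10:116288121-116288636), SKG iNKT1 had 4.05 and 4.23 CPM against 0.956 and 0.926 in BALB/c iNKT1 (log2 change 2.13, SE 0.27, edgeR adjusted p = 0.00029). In iNKT2 the order was reversed, with 4.89, 5.34 and 4.58 CPM in BALB/c and 1.49, 1.47 and 1.28 in SKG, and no library of one group overlapped the other in either subset. The iNKT1 call was lost with voom and without BALB/c iNKT1 replicate 1.

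Within SKG mice part of the subset difference remained. By the same edgeR test 988 of the 2658 regions were higher in SKG iNKT2 than in SKG iNKT1, against 10.2% of all regions, and 2 were lower, against 6.96%. These 2 lay in an intron of Pcdh18 and at the promoter of Olfm3, where SKG iNKT2 had at most 0.202 CPM. The share, 37.2%, compares with 64.4% of intermediate and 78.8% of kept regions, but the loss limit selects low SKG iNKT2 values and so lowers it. With voom and quantile normalization 250 were called, all among the 988, and 559 and 646 without SKG iNKT1 replicate 1 and 2. The Mapk10 intron region had the highest fitted difference among the members of highest level named above, a log2 change of 5.79 (edgeR adjusted p = 7.0e-08). In Rbm47 it was 3.13 (edgeR adjusted p = 1.4e-07). The genotype change was more negative in iNKT2 than in iNKT1 in 91 regions, against 0.341% of all regions, and more positive in 0, against 0.189%, by edgeR's interaction test. At an unadjusted p under 0.05 these counts were 1134 and 30, and DESeq2 gave 416 and 0. These counts have no share of all regions beside them, so nothing is read from them. The rule fixed the negative direction in large part, since it required a loss in iNKT2. Leaving out any 1 iNKT1 library gave 10 to 16 calls in place of 91, leaving out BALB/c iNKT2 replicate 2 or 3 or SKG iNKT2 replicate 3 gave 39, 38 or 47, and leaving out SKG iNKT2 replicate 1 gave 160, so the count depends on single libraries.

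Most of the regions lay far from transcription starts, though many were inside genes. Of the 2658, 1227 were intergenic, 1123 intronic, 165 touched an exon and 143 lay within 1000 bp of a transcription start. The promoter share of 5.38% compares with 23.3% of all regions and 9.65% of kept iNKT2-high regions. Their median distance to the nearest protein-coding start was 36744.5 bp, against 20176 bp for kept and 10773 bp for all regions. Median width (344 bp), GC content (46.3%) and repeat-masked share (13.8% of bases) were close to those of all regions, at 343 bp, 49.0% and 14.7%. By chromosome their share of iNKT2-high regions ran from 21.9% on chromosome 11 to 38.7% on chromosome 18.

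They were scattered over many genes, with some clusters. The nearest starts belonged to 1587 genes, of which 1090 had 1 region and 74 had 5 or more. Within 10 kb of another member lay 30.9%, against 34.7% for kept iNKT2-high regions among themselves. Cd109, which encodes a GPI-anchored TGF-beta co-receptor, had 14 of its 24 regions among the 2658, spread over 378 kb outside the gene body. Their BALB/c iNKT2 levels ran from 2.008 to 34.4 CPM, and their median fell from 4.67 CPM in BALB/c to 0.557 in SKG iNKT2. The next genes had 13 each: Arhgap24, which encodes a GTPase-activating protein, Enox1, the guanine nucleotide exchange factor gene Farp1, and Hace1, a ubiquitin ligase gene. All 13 iNKT2-high regions at Enox1 were members, and all lay inside the gene, over 275 kb. Flrt2, Kirrel3 and Magi2, which encode adhesion molecules and a synaptic scaffold, had 12 each, as did Rasgef1b, a Ras family exchange factor gene tied with them. At Kirrel3 the median of the 12 fell from 3.97 to 0.234 CPM, and all 12 iNKT2-high regions were members. The 1261 other regions at the 74 genes with 5 or more members had a median log2 change of -0.89 in SKG iNKT2, and 233 of them (18.5%) were called lower and 0 higher. Over all regions the median was 0.01, with 4.73% lower and 0.252% higher. The 74 genes were picked by losses in the same libraries, and 208 of the 1261 were themselves iNKT2-high, so nothing is read from the difference. A neighbouring region is not an independent observation of a locus.

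Among gene lists for TCR signalling and its targets, the Notch list had the most members. From these same data the study reported Notch terms for regions of BALB/c iNKT2 that SKG iNKT2 lacked, and named Hey1, Jag1, Ovol2 and Rbpj. The lists were chosen with earlier results known, so this rank is a description and not an independent result. The list of iNKT1 genes held 0 of 230 regions. The choice required iNKT2-high regions, and only 4 of those 230 were, so nothing is read from this. A list's regions are those whose nearest start is one of its genes, and the background is 2.80% of all regions. Notch genes held 24 of 268 regions (8.96%), at the co-activators Maml3 (7) and Maml2 (2), the target genes Hey1 (5) and Hes1 (4), the ligand Jag1 (3), the receptor Notch2 (2) and Ovol2 (1). Of these 24, 16 were called lower in SKG iNKT2, a contrast the choice used, where 1960 of the 2658 (73.7%) and 4.73% of all regions were. In SKG iNKT1 0 of the 24 were called lower, against 3.42% of the 2658 and 0.732% of all regions. The highest, 373956 bp upstream of Jag1 (chr2:137490600-137490998), had 20.8, 24.4 and 27.4 CPM in BALB/c iNKT2 and 3.001, 8.82 and 7.01 in SKG iNKT2. Its iNKT1 levels were 3.52 and 2.82 CPM in BALB/c and 1.22 and 1.22 in SKG, so all groups stood apart except SKG iNKT2 and BALB/c iNKT1, whose ranges overlapped. The exonic region at Hey1 (chr3:8665665-8666028), a transcriptional repressor induced by Notch, had 8.66, 10.8 and 12.1 CPM and 2.44, 2.99 and 4.38 CPM in the same iNKT2 groups.

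The list of Egr, Nab, Nr4a and Tox genes, which are induced by TCR signals, held 11 of 217 regions (5.07%). Tox, which encodes an HMG-box factor of T cell development, had 6, and Egr2, Egr4, Tox2 and the Egr co-repressor gene Nab2 had 1 each, with 1 more at another gene of the list. The Egr4 promoter region (chr6:85513527-85513893) had 21.2, 24.9 and 24.1 CPM in BALB/c iNKT2 and 6.57, 5.51 and 8.29 in SKG iNKT2. In iNKT1 it had 5.70 and 5.77 CPM in BALB/c and 1.16 and 1.86 in SKG, which is -1.92 on the log2 scale (SE 0.27, edgeR adjusted p = 0.00069) that missed the 4-fold limit. Upstream of Egr2 (chr10:67512214-67512542) the BALB/c iNKT2 libraries had 9.88, 12.3 and 15.6 CPM and the SKG iNKT2 libraries 3.95, 2.39 and 5.73. Its iNKT1 values were 1.64 and 1.37 CPM in BALB/c and 0.193 and 0.257 in SKG (log2 change -2.73, SE 0.58, edgeR adjusted p = 0.012), which did not pass the test but did so in 6 of 15 alternative fits. The list of NFAT and calcineurin genes held 1 of 230 regions (0.435%), and that of MAPK feedback genes 1 of 255, by Dusp4, a phosphatase of MAP kinases. Only 10 and 16 of their regions were iNKT2-high, as the choice required. Of all 255 MAPK feedback regions, 23 were called lower in SKG iNKT2 and 14 in SKG iNKT1, against 4.73% and 0.732% of all regions. Of the 230 NFAT and calcineurin regions the counts were 4 and 1. The Dusp4 region (chr8:34686212-34686802) went from 6.46 ± 0.641 CPM (SD, n = 3) in BALB/c iNKT2 to 1.94 ± 0.530 CPM (SD, n = 3) in SKG iNKT2.

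Co-receptor and TNF receptor genes held 9 of 295 regions (3.05%), at Cd200 (4), Btla (2), Ctla4, Icos and Lag3 (1 each). In an intron of Cd200, the ligand of an inhibitory receptor (chr16:45389811-45390298), BALB/c iNKT2 had 13.99, 10.9 and 10.7 CPM and SKG iNKT2 4.04, 3.904 and 3.44. The promoter region of Lag3, an inhibitory receptor that binds MHC class II (chr6:124911374-124911936), was lower in SKG in iNKT1 too. It had 9.32, 7.59 and 7.21 CPM in BALB/c iNKT2, 3.001, 2.80 and 2.49 in SKG iNKT2, 2.36 and 1.54 in BALB/c iNKT1 and 0.385 and 0.192 in SKG iNKT1 (log2 change in iNKT1 -2.76, SE 0.43, edgeR adjusted p = 0.0013). Type 2 cytokine genes and Gata3 held 7 of 176 regions (3.98%), at Gata3 (4), Il21 (2) and Il10 (1), none at the IL-4 gene. Upstream of Il21 (chr3:37259433-37260036), a cytokine gene, BALB/c iNKT2 had 15.4, 11.7 and 13.2 CPM and SKG iNKT2 5.53, 3.21 and 4.45. In iNKT1 it had 3.17 and 1.59 CPM in BALB/c and 0.257 and 0.513 in SKG (log2 change -2.64, SE 0.48, edgeR adjusted p = 0.0042). The region 23091 bp upstream of Il10 (chr1:130996306-130996754), which encodes an anti-inflammatory cytokine, had 15.9, 10.8 and 10.4 CPM in BALB/c iNKT2, 4.75, 2.02 and 2.02 in SKG iNKT2, 3.29 and 1.76 in BALB/c iNKT1 and 0.128 and 0.0642 in SKG iNKT1 (log2 change in iNKT1 -4.67, SE 0.76, edgeR adjusted p = 0.0019). The iNKT1 calls at Lag3, Il21 and Il10 were each lost with voom and without 3 of the 4 iNKT1 libraries. Egr2, Hey1, Lag3, Il10 and Il17a were named after their values were seen.

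The list of TCR-proximal signalling genes held fewer members than the background, 8 of 643 regions (1.24%). Of its 46 iNKT2-high regions 17.4% were members, against 29.7% of all iNKT2-high regions. Prkcq, the gene of the protein kinase C that acts at the T cell synapse, had 4, the TCR zeta chain gene Cd247 had 2, and Fyn and Rasgrp1 had 1 each. The highest, by Prkcq (chr2:11142869-11143390), fell from 12.3, 10.95 and 11.96 CPM in BALB/c iNKT2 to 1.78, 0.873 and 0.809 in SKG iNKT2. Its iNKT1 levels were 2.03 and 2.47 CPM in BALB/c and 0.450 and 0.385 in SKG (log2 change -2.41, SE 0.43, edgeR adjusted p = 0.0036), a call lost with voom and without any 1 iNKT1 library. T lineage factor genes held 15 of 794 (1.89%), with 5 at Ikzf2, which encodes Helios, 4 at Runx1 and 3 at Id2. These 15 were 30.6% of the 49 iNKT2-high regions of the list, close to the share over all iNKT2-high regions. In the Ikzf2 intron (chr1:69653207-69653784) BALB/c iNKT2 had 20.7, 15.7 and 14.8 CPM, SKG iNKT2 2.59, 2.57 and 3.10, BALB/c iNKT1 4.51 and 5.69 and SKG iNKT1 2.31 and 1.92. The AP-1, Irf4, Maf and Bach list held 10 of 355 (2.82%), at Maf (4), Bach2 (3), Prdm1 (2) and Jun (1), and the NF-kB list 3 of 227 (1.32%). An intron of Bach2, a repressor of effector genes (chr4:32481621-32482143), had 7.34, 11.2 and 7.79 CPM in BALB/c iNKT2 and 1.16, 1.61 and 2.29 in SKG iNKT2. By Nfkbiz, an atypical I-kappa-B gene (chr16:55770183-55770740), the values were 11.8, 20.6 and 22.5 and 4.10, 7.62 and 7.21 CPM, and iNKT1 stood at 1.41 to 1.86 CPM in all 4 libraries.

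The list of iNKT2 genes held 1 of 233 regions (0.429%), although 22 of its regions were iNKT2-high and 15 of these were kept in SKG. The 1 lay in an intron of Il6ra, the IL-6 receptor gene (chr3:89892400-89892813), at 6.81, 3.54 and 3.67 CPM in BALB/c iNKT2 and 1.49, 0.873 and 0.674 in SKG iNKT2. The iNKT17 list held 3 of 125 (2.40%), of which 2 were at Il17a and 1 in an intron of Il1r1 (chr1:40279083-40279676), while 18 of its 45 iNKT2-high regions were kept. The Il17a promoter region (chr1:20730551-20730951) had 4.49, 5.71 and 6.18 CPM in BALB/c iNKT2 and 0.624, 1.10 and 1.75 in SKG iNKT2. Summed over all its regions, Il17a had 61.6 to 66.5 CPM in BALB/c iNKT2, 27.2 to 43.3 in SKG iNKT2, 3.44 to 4.15 in BALB/c iNKT1 and 6.30 to 6.48 in SKG iNKT1. The sums at Il23r, another iNKT17 marker, were 40.3 to 55.1 CPM in BALB/c and 27.2 to 48.95 in SKG iNKT2, and those at Ccr6 were 10.4 to 15.8 and 21.4 to 27.1. Their part in the results was not tested. Of 5 iNKT2 markers, regions of Il17rb and Ccr7 had higher mean sums in iNKT2 than in iNKT1 of the same genotype, whereas those of Zbtb16, Il4 and Gata3 had lower means. The myeloid genes Spi1 and Itgam summed to 62.8 to 71.4 CPM in iNKT1 and 26.97 to 38.1 in iNKT2 and held no member, and Csf1r and Lyz2 had no region.

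Sequence took no part in the choice. TGGAAA occurred in the central 300 bases of 1139 of the 2658 regions (42.9%, Wilson 95% interval 41.0 to 44.7), against 26.4% of intermediate, 20.2% of kept iNKT2-high, 20.7% of iNKT1-high and 23.4% of all regions, where iNKT1-high applies the level and subset limits in reverse (5941 regions). Of all 2080 strings of 6 letters, each counted with its reverse complement, TGGAAA had the largest excess in percentage points, 22.7 over kept and 19.5 over all regions. ATGGAA and GTGGAA, which overlap it, followed at 15.8 and 10.96 points over kept regions. In 267 regions (10.05%) there were 2 or more copies, against 2.73% of kept and 3.24% of all regions. The interval covers counting error only, and neighbouring regions are not independent. A match of letters is a description and not a binding site.

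Within iNKT2-high regions the share rose with the extent of loss. It was 64.1% in the 78 regions with a ratio of up to 0.1, 48.9% from 0.1 to 0.2, 43.9% from 0.2 to 0.3 and 37.0% from 0.3 to 0.4. Above the limit it was 28.3% from 0.4 to 0.6, 24.1% from 0.6 to 0.8, 21.3% from 0.8 to 1 and 19.2% above 1. Over the same 8 classes the median log2 change in iNKT1, which shares no library with the ratio, went from -1.54 through -1.07, -0.66, -0.51, -0.24, -0.01 and 0.06 to 0.38. The share differed little with level among the 2658, between 41.9% and 44.7% in 4 classes of BALB/c iNKT2 CPM.

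**Figure D4:**
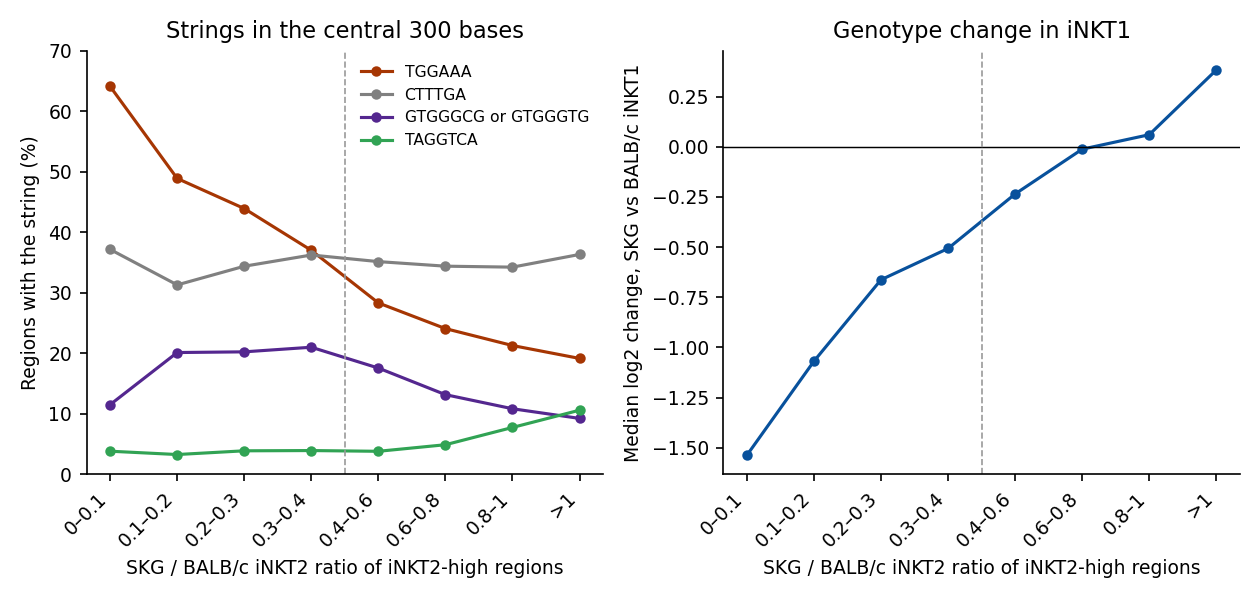
Left, percent of iNKT2-high regions holding each string in their central 300 bases, by class of SKG to BALB/c iNKT2 ratio (horizontal axis, 78 to 2036 regions a class). Right, median log2 change between SKG and BALB/c iNKT1 in the same classes. The dashed line is the limit of 0.4: TGGAAA falls from 64.1% to 19.2% from left to right, while CTTTGA stays between 31.3% and 37.2%.

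The copies lay towards the middle of the regions. Among the 1450 copies in the 2658 regions, 26.1% were within 30 bp of the centre, against 16.6% of copies in kept and 19.4% in all regions. The median distance from the centre was 61 bp, against 82 bp and 78 bp. In 20-bp bins the frequency was 4.85 copies per 100 regions in the bin from 30 to 10 bp left of the centre and 2.41 at the left edge. In kept regions the same bins held 1.46 and 1.58. Among the 1381 copies with 8 bases of the window on each side, the base before TGGAAA was A in 37.4% and G in 30.1%, against 26.8% and 24.2% in kept regions, and T in 13.7% against 20.3%.

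**Figure D5:**
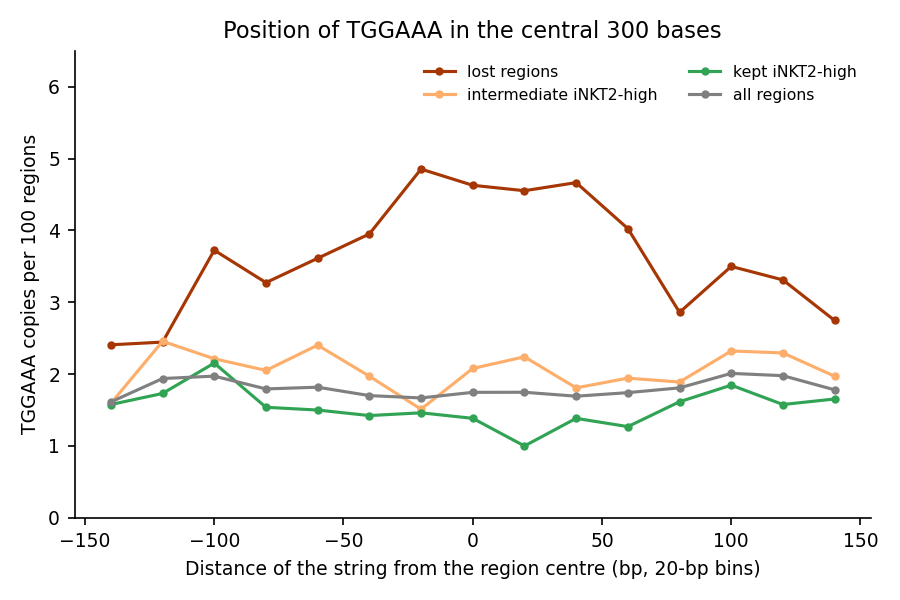
Copies of TGGAAA (both strands) per 100 regions, by distance from the centre in 20-bp bins over the central 300 bases, for 4 sets of regions. The line of the 2658 lost regions reaches 4.85 near the centre, and those of kept and all regions stay between 1.00 and 2.16.

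Strings of the Egr factors were more frequent too, by less. GTGGGCG was found in 5.98% of the 2658 regions, 2.23% of kept and 4.72% of all regions, and GTGGGTG in 15.2%, 7.96% and 9.85%. Over whole regions GTGGGCG was in 6.58% of the 2658 and 6.98% of all regions, so its excess over all regions did not hold there. GTGGGTG was in 17.5% and 13.4%. Unlike TGGAAA, the Egr strings were not most frequent at the lowest ratios: either was present in 11.5% of iNKT2-high regions with a ratio of up to 0.1, in 20.1% to 21.02% of the classes from 0.1 to 0.4, and in 9.27% above 1. Over the 2658 regions either was present in 539 (20.3%), against 10.0% of kept and 14.03% of all. The Egr strings were not more frequent beside TGGAAA, since GTGGGTG was in 14.1% of the regions that held that string and 16.1% of those without it. TGGAAA or an Egr string occurred in 1472 regions (55.4%), against 28.3% of kept and 34.5% of all. The AP-1 string TGANTCA was found in 14.9% of the 2658, 10.6% of kept, 16.8% of iNKT1-high and 10.6% of all regions.

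Most other strings were about as frequent as in the iNKT2-high regions that SKG kept, or were rarer. CTTTGA, which Tcf and Lef factors bind, was in 34.6% of the 2658 and 35.4% of kept regions, against 21.5% of all, and the Gata string AGATAA in 19.9% and 20.4%, against 14.3%. TAGGTCA, a nuclear receptor string, was in 3.80% against 9.31% of kept regions and 3.02% of all, and the Runx string TGTGGTT in 14.03% against 18.5% and 13.2%. The NF-kB string GGGAANTTC was in 0.640% against 1.46% and 1.02%. The T-box string AGGTGTNA was found in 3.95%, against 14.6% of iNKT1-high regions, the Ets string ACTTCC in 26.1% against 37.0%, and the E-box string CAGCTG in 16.9% against 19.1%. Kept regions were closer to the 2658 for the T-box and Ets strings, at 3.35% and 26.4%, with 18.3% for the E-box string. In all regions the shares were 4.83%, 28.4% and 17.4%. The shorter string GGAAA, which TGGAAA contains, was in 77.0% of the 2658 and 64.1% of all regions.

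TGGAAA also went with the change in iNKT1 in these regions. Those with no copy had a median log2 change of -0.59 in SKG iNKT1, those with 1 copy -0.76 and those with 2 or more -1.17. The calls of a fall in iNKT1 were 37 of 1519 (2.44%), 31 of 872 (3.56%) and 23 of 267 (8.61%). Among all regions the same classes had 0.557%, 1.14% and 2.31% called lower and medians of -0.01, -0.10 and -0.21. These shares are descriptions, and their differences were not tested.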

How the data were processed

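ATAC-seq insertions were counted in 10 libraries of sorted thymic iNKT cells. Per the labels and the study's methods, the authors trimmed reads with Trim Galore, aligned them to mm10 with Bowtie 1.0, removed duplicates with Picard, called peaks with MACS2 and merged summit-centred windows into 1 set of regions. The deposited table holds whole-number counts of insertions per region, not normalized, in 94823 regions of at least 300 bp. Its depth, 14988590 to 36342635 insertions per library, covers insertions inside regions only.

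From these counts CPM were computed with TMM factors (edgeR 4.0.16 in R 4.3.3). All regions and all 10 libraries were fitted together with edgeR's quasi-likelihood test, 1 mean per group and no covariate, with Benjamini-Hochberg adjustment over all regions. A call needed an adjusted p under 0.01 and a change of at least 4-fold. Alternatives were library totals, DESeq2 1.42.0, voom with quantile normalization (limma 3.58.1), a fit without the regions whose mean count lay under the lower quartile, 36.2, a call at 0.05 and 2-fold, the replicate number as a block, and each library left out. Tables were made with Python 3.11.15, pandas 2.3.3, numpy 2.4.6 and scipy 1.17.1, and the fits were tested on simulated counts first.

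Regions were assigned to the nearest protein-coding transcription start of GENCODE M21 (GRCm38), with promoters within 1000 bp. 13 strings were searched on both strands of the central 300 bases. The regions, gene lists and tests were chosen with earlier results of these data known. Regions were named by rule: the 6 of highest BALB/c iNKT2 level, the 6 of lowest ratio, the 8 genes with most regions, the highest region of each gene list, those next to each limit, and up to 3 with the largest called change in either direction in iNKT1. Others are said to have been chosen after their values were seen. Regions on chromosome 18 are counted but not named. Some other items that these rules name are not reported here.

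Replicate numbers were checked as pairs by the correlation of deviations from group means. It was 0.492, 0.165 and 0.202 for the same numbers in BALB/c and SKG iNKT2, and -0.00599 in iNKT1. Replicates 2 and 3 of BALB/c iNKT2 correlated more with the other number in SKG, at 0.180 and 0.278. Intervals and floors cover counting error only.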

Additional observations from a re-analysis of the deposited data

Results flagged for a closer look

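The genotype change differed between iNKT2 and iNKT1 in 91 of the 2658 regions by edgeR's interaction test, each time more negative in iNKT2. The regions were chosen for a loss in iNKT2, so this direction was favoured by the choice. In the intergenic region nearest to Gm10800 (chr2:99472957-99473258) the log2 change in iNKT2 minus that in iNKT1 was -7.38 (edgeR adjusted p = 0.00032), and the call was lost without SKG iNKT1 replicate 1. In the Fhit intron (chr14:11036233-11036608) it was -6.81 (edgeR adjusted p = 0.0084), and the call was lost in 10 of 15 alternative fits. In the Ptprb intron (chr10:116288121-116288636) it was -3.92 (edgeR adjusted p = 0.00021), with signal higher in SKG iNKT1 and lower in SKG iNKT2, and the call held in all 15.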

How the results depend on the processing

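With voom and quantile normalization, 4 of the 2658 regions were lower and 0 higher in SKG iNKT1, 250 were higher in SKG iNKT2 than in SKG iNKT1, and 59 had a more negative genotype change in iNKT2. The median log2 change in iNKT1 was then -0.26, against -0.65 with DESeq2 and -0.71 with library totals. DESeq2 called 5 higher in SKG iNKT1 and 416 more negative. At an adjusted p under 0.05 and 2-fold the counts were 231 lower and 12 higher in SKG iNKT1, 1573 higher and 11 lower in SKG iNKT2 than in SKG iNKT1, and 387 more negative and 3 more positive. With low counts left out, 1243 were lower in SKG than in BALB/c iNKT2 and 1 was lower in SKG iNKT2 than in SKG iNKT1. With the replicate block 2 regions were higher in SKG iNKT1, 116 lower and 133 more negative. Between the iNKT2 groups it called 1998 lower instead of 1960. The numbers are not shown to pair those samples, since replicates 2 and 3 of BALB/c iNKT2 correlated more with the other number in SKG. A pseudocount of 1 left 1710 regions meeting the limits. The cause of these shifts was not tested.

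Leaving out each library in turn gave 16 to 118 regions lower and 0 to 4 higher in SKG iNKT1, with a median log2 change of -1.07 to -0.44. It gave 559 to 1075 higher and 1 to 2 lower in SKG iNKT2 than in SKG iNKT1, 10 to 160 more negative, 1784 to 2108 lower in SKG iNKT2 and 2536 to 2981 regions meeting the limits. An iNKT1 group then has 1 library, assumed to vary like the other groups. Over whole regions the string shares were 82.7% for GGAAA, 48.9% for TGGAAA, 17.5% for GTGGGTG, 17.9% for TGANTCA, 39.8% for CTTTGA, 16.0% for TGTGGTT, 30.6% for ACTTCC, 4.97% for AGGTGTNA, 24.6% for AGATAA and 20.99% for CAGCTG. In all regions TGGAAA was then in 31.3% and GTGGGTG in 13.4%. GTGGGCG was in 6.58% of the 2658 and 6.98% of all regions. The median log2 change of all regions between the iNKT2 groups moved from 0.01 under TMM factors to -0.12 under library totals and 0.10 under voom, against -2.48, -2.60 and -2.57 in the 2658 regions. In iNKT1 a median of 2 to 8 insertions per library in these regions limits what can be called.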
